A study of Rattus norvegicus with 325 samples.

Results

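The data described here are the 12 soleus libraries of male Sprague Dawley rats at 27 months and the 12 at 6 months, chosen by the muscle and the age in their titles, 24 of the 84 soleus libraries. The whole series adds 83 libraries of the diaphragm, 73 of the gastrocnemius and 85 of the tibialis anterior at 7 ages, and asks which transcripts change as rats grow old and lose muscle. The labels name no engineered allele and no treatment, so by label the groups differ in age alone. Sprague Dawley is an outbred albino laboratory strain. According to the study's methods, all muscles of an age were taken on the same morning and the ages on different days spread over months. An effect of age cannot be told apart from an effect of the day. The study states that samples of a muscle equal animals in number, so the 12 libraries of an age are from 12 rats. The labels do not name the animal of a library, and p-values measure the spread between these libraries.

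The soleus is a postural calf muscle built mostly of slow, oxidative fibres that run on fat and depend on steady nerve input. A fibre that loses its motor nerve re-expresses the fetal form of the acetylcholine receptor along its surface, together with embryonic myosin, synapse organisers and myogenic transcription factors, and slow fibres without tonic nerve activity drift toward fast contractile proteins. In aged rodents part of this programme is known from muscles in which motor units are being lost and fibres reinnervated.

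The depth was 24.4 to 39.2 M counts per library at 6 months (mean 32.4 ± 4.46, SD, n = 12) and 21.4 to 37.7 M at 27 months (30.2 ± 4.05, n = 12), which did not differ (difference -2.20 M, permutation p = 0.217, adjusted p = 0.326 over 3 library measures). The 10 most abundant genes took 19.4 to 21.0% of counts at 6 months and 12.2 to 20.1% at 27 months (difference -2.98 percentage points, permutation p = 4e-05, adjusted p = 0.00012). The label of the muscle held: the slow myosin Myh7 stood at 15.53 to 15.87 log2 CPM at 6 months and 14.29 to 15.92 at 27 months, and the Y-linked translation factor gene Eif2s3y was present in every library, at 6.29 to 6.47 and 5.07 to 6.27 log2 CPM. CPM is a count scaled to the effective total of its library, and M above is the usual prefix mega. The 27-month libraries were uneven. Library 9 (numbers as in the titles) lay at 0.506 of the mean change, as a median over called genes, and was the 27-month library nearest to the 6-month level for 818 of 1825 called genes (44.8%). Library 8 lay at 1.34 of the mean change and was the farthest for 608 (33.3%). Albumin and other liver transcripts were scattered over both ages, and the libraries 4 and 7 of 27 months held 45772 and 18210 albumin counts against 19 to 188 in the other 10. The 18S ribosomal RNA gene Rn18s had 9690 to 19956 counts at 6 months but 0 counts in libraries 0, 8 and 9 of 27 months.

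Of 12175 genes tested, 1825 (15.0%) changed between 6 and 27 months, where a change means an adjusted p under 0.05 and more than 1.5-fold in a limma-voom fit of all 84 soleus libraries. Of all genes tested, 9.21% (1121) rose and 5.78% (704) fell. Rises made up 61.4% of the calls, or 77.7% when libraries were scaled by total count alone, a scaling that moved the median of all genes up by 0.15 on the log2 scale. More than 2-fold, 529 genes rose and 262 fell, and more than 4-fold, 151 and 90. The median change of a called gene was 0.92 in absolute log2 value, against a median of 0.02 for all genes and a median standard error of 0.0833. In 683 genes (5.61%) the 12 libraries of one age lay entirely apart from those of the other, and 430 of these were called. The old libraries lay wholly higher in 2.46% of all genes (299, of which 214 were called) and wholly lower in 3.15% (384, of which 216 were called). Libraries were more spread at 27 months: the SD was larger than at 6 months in 8531 genes (70.1%), with a median of 0.241 against 0.173.

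Listed by function, some groups were called in 1 direction and others in both. The members called among acetylcholine receptor subunits, denervation signals, myogenic factors and genes of the fast and developmental sarcomere were all higher. Those called in the respiratory chain, the citric acid cycle and ketone body use were all lower, and those in fatty acid oxidation and glycogen were lower with 1 exception each. Channel genes, the myostatin pathway, collagens, other matrix genes, sarcomere stress genes, axon guidance and clock genes had calls both ways. Proteasome subunits were uncalled in 32 of 32. The medians given below for each list stand beside the median of 0.02 over all genes, and some of those closest to 0 changed sign with the scaling or the test.

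**Figure D1:**
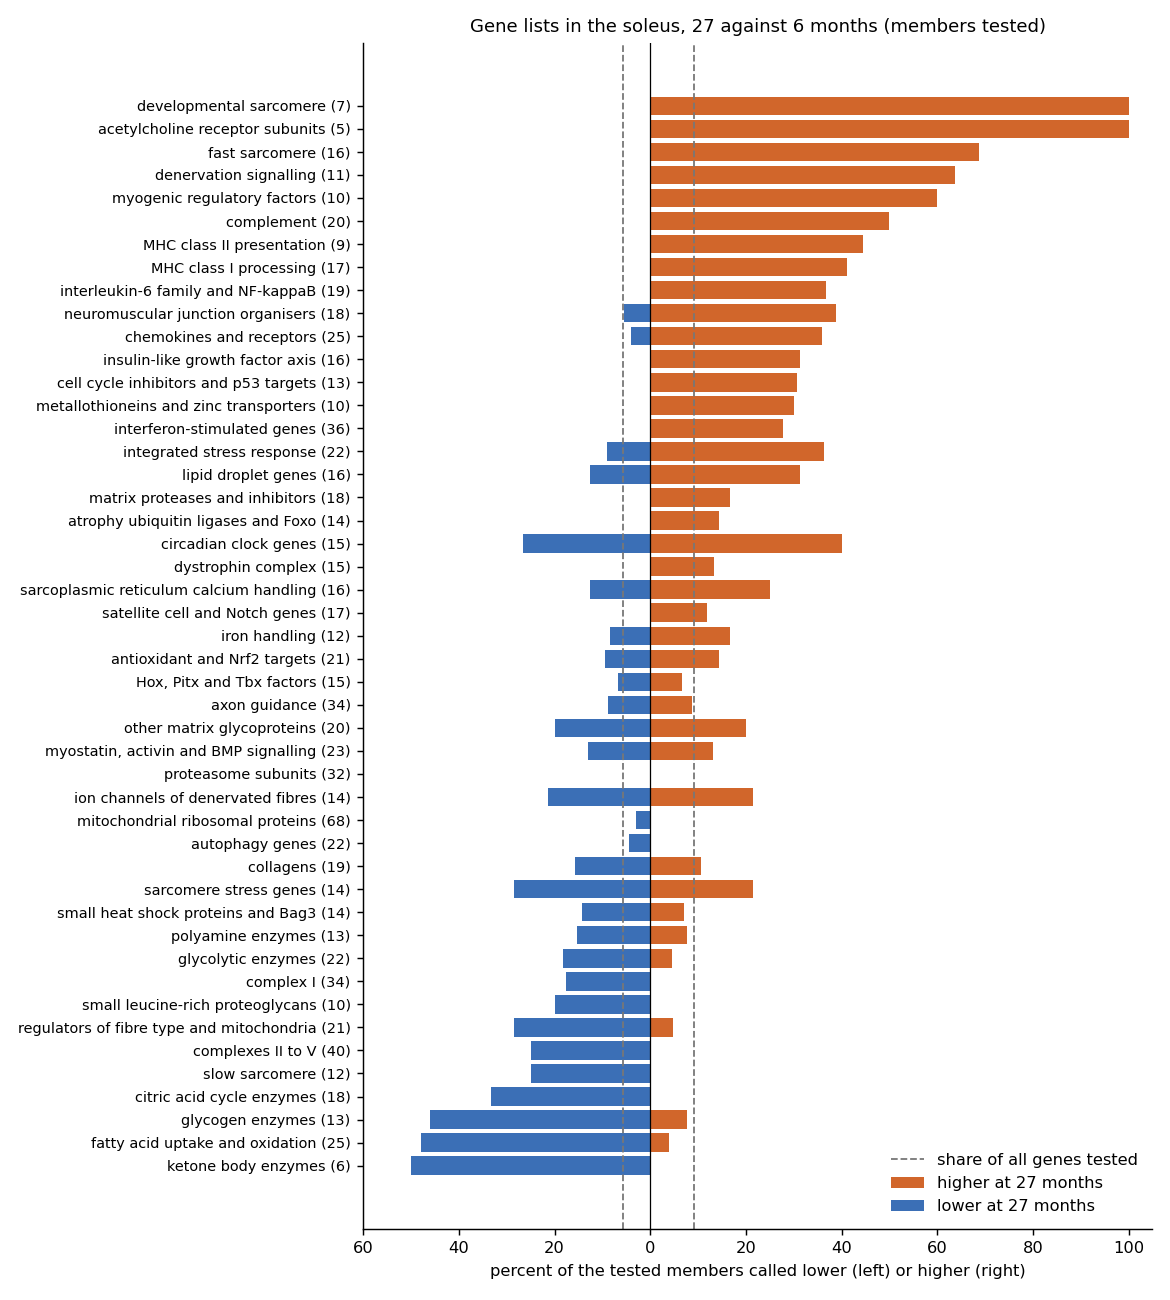
Percent of the tested members of each gene list that were called higher (right) or lower (left) in the soleus at 27 against 6 months, with the number of members tested in brackets. The dashed lines mark the shares over all genes tested, 9.21% higher and 5.78% lower, and all members of the receptor subunit and developmental sarcomere lists lie on the higher side.

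The largest rise among expressed genes with a name was that of Klk1c7, a kallikrein serine protease. It had 117 counts in all at 6 months and 15044 at 27 months, and its level went from a median of -2.09 log2 CPM (-5.78 to -0.10) to 5.21 (1.88 to 6.38), a log2 change of 7.23 ± 1.65 (SE, adjusted p = 0.00013). Rat kallikreins form a family of near-identical copies, so the counts of this gene may hold reads of its relatives. Its counts per library at 6 months ran from 0 to 29, so the filter on low counts was not passed at that age alone. Pvalb, the calcium buffer parvalbumin of fast fibres, rose by 6.12 ± 1.34 (adjusted p = 7.3e-05) from 278 to 15274 counts. The calls of both genes were lost with a Bonferroni adjustment, and Pvalb stayed inside the 6-month range in 1 of 12 libraries. Cdkn1a, which encodes the cell cycle inhibitor p21, went from 3.78 to 4.80 log2 CPM (median 4.27) to 6.50 to 9.99 (median 9.15), a change of 4.76 ± 0.32 (adjusted p = 8.7e-22) with no overlap.

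Next by size came rises of genes with varied roles. Myo5b, an unconventional myosin that carries endosomes, rose by 4.57 ± 0.90, and Flrt1, a membrane protein of the fibronectin leucine-rich family, by 4.54 ± 0.78. Prrt4 rose by 4.30 ± 0.64, Ppp1r14c, an inhibitor of protein phosphatase 1, by 4.28 ± 0.72, and Ctxn3 by 3.79 ± 0.53. Hsd11b2, the enzyme that inactivates glucocorticoids, was near 1 CPM or lower at 6 months, between -1.04 and 0.61 log2 CPM, and stood at 0.72 to 5.22 at 27 months (change 4.24 ± 0.68, adjusted p = 1.4e-07). Tph1, tryptophan hydroxylase of serotonin synthesis, rose by 3.88 ± 0.66. Flrt1, Prrt4, Hsd11b2 and Ctxn3 did not overlap between the ages, and the others kept 1 of 12 old libraries within the young range.

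The largest falls split into transcripts of uneven libraries and muscle genes. Rn18s fell by 5.23 on the log2 scale, and its call was lost without libraries 0, 8 and 9. A group of 3 liver transcripts follows by size: A1i3, Alb and Serpina1 fell by 4.40, 3.89 and 3.14, but their 6-month libraries alone spanned 0.45 to 7.89, 2.09 to 10.40 and 0.68 to 7.62 log2 CPM, and all 3 calls were lost with edgeR and DESeq2. The calls of A1i3 and Alb were also lost without libraries 4 and 7. The muscle genes were steadier. Bdh1, the mitochondrial enzyme that interconverts the main ketone bodies, was at 4.61 to 5.30 log2 CPM at 6 months (median 5.09) and at 0.53 to 4.20 at 27 months (median 2.49), a change of -2.78 ± 0.26 (adjusted p = 1e-15). Cacna1e, a neuronal-type calcium channel subunit, fell by 2.29 (SE 0.30), G0s2, an inhibitor of the triglyceride lipase of lipid droplets, by 2.25 (0.27), and Slc41a3, a magnesium transporter, by 2.15 (0.18). Asb18, a subunit of muscle ubiquitin ligases, fell by 2.03 (0.17). In these 5 genes every library of 27 months was below every library of 6 months. Myo3b and Lrrc52 fell by 2.17 (0.27) and 2.15 (0.34), with 11 and 9 of 12 old libraries below the young range.

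All 5 acetylcholine receptor subunits rose (median change 1.57). The muscle receptor is a pentamer, and the gamma subunit of fetal and denervated muscle gives way to the epsilon subunit at the adult synapse. The 250 bases before each start site are shown because these promoters are a textbook target of myogenic factors through E-boxes. Sequences are from RefSeq (build GRCr8), 5′ to 3′ on the gene's strand, and capitals mark matches to the E-boxes CAGCTG or CAGGTG on either strand. Chrng is at chr9:95325734-95325983 (+), Chrna1 at chr3:78877354-78877603 (-), Chrnd at chr9:95310066-95310315 (+), Chrnb1 at chr10:55015108-55015357 (-) and Chrne at chr10:55834155-55834404 (-).
Chrng: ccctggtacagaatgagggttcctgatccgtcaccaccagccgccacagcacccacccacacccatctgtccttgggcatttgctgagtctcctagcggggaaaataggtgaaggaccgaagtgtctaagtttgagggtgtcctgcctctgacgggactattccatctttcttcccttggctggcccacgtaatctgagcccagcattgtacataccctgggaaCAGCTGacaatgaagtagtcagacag
Chrna1: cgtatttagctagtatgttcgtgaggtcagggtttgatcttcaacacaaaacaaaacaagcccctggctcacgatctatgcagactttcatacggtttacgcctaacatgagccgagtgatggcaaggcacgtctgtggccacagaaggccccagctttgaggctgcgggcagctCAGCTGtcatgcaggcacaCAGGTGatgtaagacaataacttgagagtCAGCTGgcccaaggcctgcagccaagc
Chrnd: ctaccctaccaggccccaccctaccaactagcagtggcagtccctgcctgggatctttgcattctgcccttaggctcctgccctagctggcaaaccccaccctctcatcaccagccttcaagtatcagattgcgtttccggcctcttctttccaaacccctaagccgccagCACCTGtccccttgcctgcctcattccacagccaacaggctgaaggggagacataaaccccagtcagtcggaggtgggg
Chrnb1: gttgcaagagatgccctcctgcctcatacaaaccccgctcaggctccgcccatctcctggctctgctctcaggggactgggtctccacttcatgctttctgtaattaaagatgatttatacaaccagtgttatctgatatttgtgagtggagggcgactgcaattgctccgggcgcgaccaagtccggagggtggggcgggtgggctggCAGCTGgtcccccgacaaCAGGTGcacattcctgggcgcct
Chrne: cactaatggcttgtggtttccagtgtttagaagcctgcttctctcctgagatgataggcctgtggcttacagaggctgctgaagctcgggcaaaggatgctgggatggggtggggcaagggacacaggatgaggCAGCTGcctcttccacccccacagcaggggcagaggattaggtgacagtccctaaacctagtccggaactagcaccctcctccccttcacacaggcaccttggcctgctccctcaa
The Chrna1 promoter held 3 matches, Chrnb1 held 2, and Chrng, Chrnd and Chrne held 1 each. Of 27457 rat promoters of the same length, 25.5% held at least 1 match, 4.44% at least 2 and 0.736% at least 3. CAGCTG alone was in 11.9% and CAGGTG in 15.6%. A match describes the letters and is no evidence of binding.

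Chrng, the fetal gamma subunit, had the largest change of the receptor genes. Its level was -0.18 to 2.10 log2 CPM at 6 months (median 1.56) and 3.28 to 6.30 at 27 months (median 5.11), a change of 3.73 ± 0.36 (adjusted p = 1.3e-14). Chrna1, the alpha subunit that binds acetylcholine, went from 5.78 to 6.44 (median 5.98) to 6.14 to 9.50 (median 8.76) and changed by 2.55 ± 0.27. Library 9 of 27 months was the low value of both genes, and for Chrna1 it alone fell within the 6-month range. The delta subunit Chrnd moved from 5.20 to 5.79 to 6.70 to 7.60 log2 CPM (change 1.57 ± 0.11, adjusted p = 5.4e-21). Chrnb1 rose by 0.91 ± 0.08, from 5.57 to 5.92 log2 CPM (median 5.69) to 6.11 or more (median 6.67). The adult epsilon subunit Chrne rose too, by 0.84 ± 0.09, from 2.55 to 3.16 to 3.34 to 4.22 log2 CPM. Genes other than Chrna1 did not overlap between the ages.

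Of 18 organisers of the neuromuscular junction, 7 rose and 1 fell (median 0.41). Musk, the receptor kinase that clusters acetylcholine receptors, went from 1.81 to 2.50 log2 CPM (median 2.03) to 2.87 to 4.50 (median 3.82), a change of 1.73 ± 0.17 (adjusted p = 4.5e-14) without overlap. Ncam1, an adhesion molecule that covers denervated fibres, rose by 1.81 ± 0.14 from 5.56 to 6.08 to 6.54 to 8.07 log2 CPM, again without overlap. Erbb2, a neuregulin receptor, rose by 2.64 ± 0.28, its ligand gene Nrg1 by 1.70 ± 0.42, and the syntrophin Sntb1 by 1.23 ± 0.17. Nrg1 was close to the limit of detection, at a median of -2.36 log2 CPM at 6 months and -0.79 at 27 months, and its call was lost with Bonferroni. With 81 counts in all at 6 months, it passed the filter on low counts through other ages. Ache, the esterase that ends transmission, rose by 1.25 ± 0.14 with 11 of 12 old libraries above the young range. Colq, the collagen tail that anchors this esterase, was the member that fell, by 0.62 (SE 0.14). It was named after its value was seen, and its call was lost with total-count scaling, edgeR, DESeq2, Bonferroni and without libraries 0, 8 and 9.

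Denervation signals rose in 7 of 11 members (median 2.14) and fell in 0. Gadd45a, a stress protein that acts with p53 and is induced after nerve injury, went from 3.13 to 3.81 log2 CPM to 4.11 to 7.14 (change 2.82 ± 0.26). Runx1, a transcription factor that limits wasting of denervated fibres, went from 3.81 to 4.54 (median 4.32) to 4.77 to 7.93 (median 7.32), a change of 2.84 ± 0.26 (adjusted p = 4.4e-16). Hdac4, the deacetylase that links loss of nerve activity to gene expression, rose by 2.25 ± 0.19, and Sln, the sarcolipin peptide that slows the calcium pump, by 2.14 ± 0.19. These 4 genes and Cdkn1a did not overlap between the ages.

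**Figure D2:**
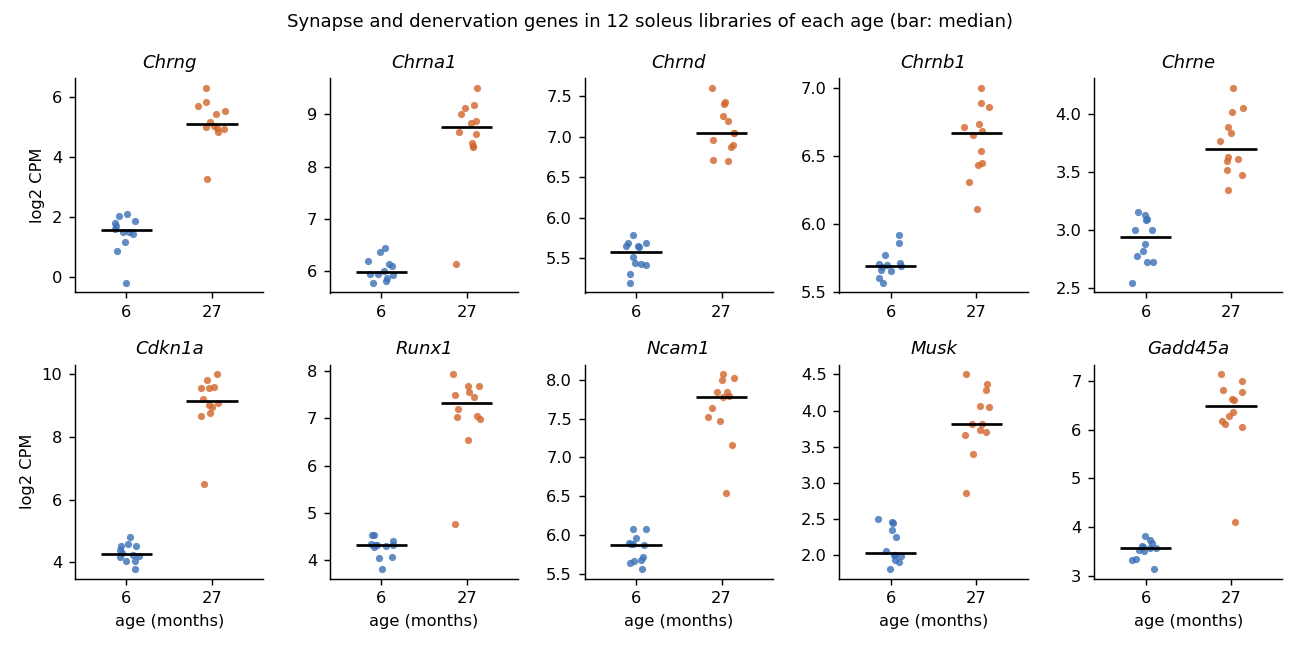
Level in log2 CPM of 10 synapse and denervation genes in each of the 12 soleus libraries of 6 months (blue) and 12 of 27 months (orange), with the median as a bar. Chrng, Chrnd, Chrnb1, Chrne, Cdkn1a, Runx1, Ncam1, Musk and Gadd45a are apart at the 2 ages, while 1 orange point (library 9) falls in the range of 6 months for Chrna1.

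The sarcomere gained fast and developmental transcripts. Of 16 fast genes 11 rose and 0 fell (median 1.68), of 7 developmental genes 7 rose (median 2.24), and of 12 slow genes 0 rose and 3 fell (median -0.39). The fast count was 5 with Bonferroni. Myh4, the myosin of the fastest fibres, was at 2.27 to 5.95 log2 CPM at 6 months (median 3.23) and 4.51 to 8.47 at 27 months (median 6.79), a change of 3.08 ± 0.44 (adjusted p = 5.3e-09). Myh1, the type IIx myosin, went from 4.08 to 8.95 (median 6.01) to 5.87 to 11.43 (median 9.84) and changed by 3.22 ± 0.63. The young libraries were themselves spread over a wide range of fast transcripts, so only 9 of 12 old libraries for Myh4 and 8 for Myh1 exceeded them. Actn3, the alpha-actinin of fast Z-discs, rose by 3.55 ± 0.55 and Mylpf, the fast regulatory light chain, by 2.94 ± 0.36. The fast troponins Tnnt3 and Tnnc2 rose by 2.58 ± 0.61 and 2.32 ± 0.48, and these 2 calls were lost with Bonferroni. Myh2, the type IIa myosin that a slow muscle normally holds as its faster form, was not called (1.20 ± 0.86, adjusted p = 0.24, and -0.13 with edgeR and with DESeq2), with 3.79 to 11.33 log2 CPM at 6 months and 5.72 to 11.44 at 27 months.

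Among developmental genes, Myh3, the embryonic myosin, went from 7.76 to 8.97 log2 CPM (median 8.32) to 8.63 to 11.71 (median 11.01), a change of 2.45 ± 0.29 (adjusted p = 1.3e-11). The neonatal myosin Myh8 rose by 2.24 ± 0.41 (median 1.70 to 3.98). Myl4, the atrial and embryonic light chain, rose by 2.41 ± 0.22 without overlap, from 0.38 to 1.83 to 2.22 to 4.21 log2 CPM. Mybph, a thick filament protein, rose by 2.86 ± 0.31, and the cardiac actin Actc1 and troponin Tnnt2 of developing muscle by 1.24 ± 0.22 and 0.88 ± 0.20. The 3 slow members that fell were Myoz2 (calsarcin of slow Z-discs, -0.996 ± 0.10), Tpm3 (slow tropomyosin, -0.92 ± 0.12) and Atp2a2 (the slow calcium pump, -0.85 ± 0.11). Without library 9 of 27 months 5 slow members fell, a count also reached without library 10 or 11 of 27 months or library 6 or 8 of 6 months. Myh7 itself had a change of -0.58 ± 0.08 (adjusted p = 1.2e-08), just under 1.5-fold, and was called with RLE size factors and with no filter on low counts. Tnni1 and Myl2, slow troponin I and slow light chain, were at -0.31 ± 0.06 and -0.40 ± 0.10. In a bulk sample, fewer fibres of a type and less RNA per fibre cannot be told apart. The summed level of 9 fast fibre markers was 80.1 to 877 CPM at 6 months (median 446) and 309 to 6038 at 27 months (median 2723), and that of 7 slow fibre markers 59129 to 72121 (median 64874) and 24794 to 74476 (median 43738).

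**Figure D3:**
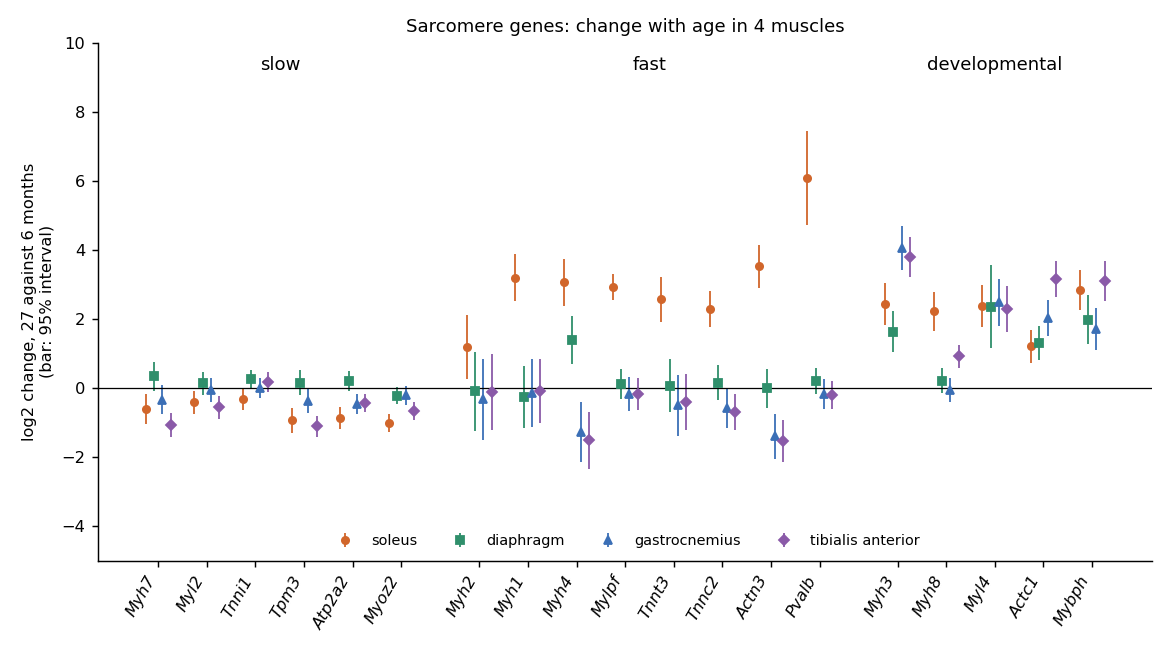
Change from 6 to 27 months (log2, joint fit of the 4 muscles, bars 95% interval) of 19 slow, fast and developmental sarcomere genes in 4 muscles. The fast genes Myh1, Mylpf, Tnnt3, Tnnc2, Actn3 and Pvalb lie above 2 in the soleus and near or below 0 in the other muscles, and the developmental genes lie above 0 in all 4, except Myh8 in the gastrocnemius at -0.06.

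Calcium handling and excitability changed gene by gene. Of 16 calcium genes of the sarcoplasmic reticulum 4 rose and 2 fell (median -0.06, or 0.07 with total-count scaling). Cacnb1, the beta subunit of the voltage sensor, rose by 1.13 ± 0.09 from 6.80 to 7.14 to 7.42 to 8.40 log2 CPM, and the pump inhibitor Mrln by 0.97 ± 0.13. Trdn, triadin of the release complex, fell by 0.78 (SE 0.13). Of 14 channel genes 3 rose and 3 fell (median -0.26). Kcnn3, the SK3 potassium channel that appears in denervated fibres, rose by 1.78 ± 0.14 (4.89 to 5.52 log2 CPM at 6 months, 5.52 to 7.57 at 27 months), and Kcnq5 by 2.04 ± 0.14. Kcnj11, the pore of the ATP-sensitive potassium channel, fell by 0.93 (0.09) and the sodium channel subunit Scn4b by 0.88 (0.14).

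Of 10 myogenic factors 6 rose and 0 fell (median 0.71). Myod1, the determination factor that binds E-boxes, went from 3.14 to 4.19 log2 CPM (median 3.66) to 3.52 to 7.83 (median 6.66), a change of 2.88 ± 0.29 (adjusted p = 6.6e-14). Myog, its partner in differentiation, rose less, by 0.79 ± 0.11, from 5.11 to 5.61 to 5.31 to 6.69 log2 CPM. Tmem8c, which encodes the fusion protein myomaker, rose by 1.86 ± 0.33, Myf5 by 0.74 ± 0.14, and the inhibitors Id2 and Id3 by 0.74 ± 0.14 and 0.68 ± 0.10. Satellite cell and Notch genes were mostly uncalled: 2 of 17 rose, the adhesion gene Cdh15 (0.77 ± 0.10) and the Notch ligand gene Dll1 (0.92 ± 0.13). These are 11.8% of the list, near the 9.21% of all genes that rose. Pax7, which marks satellite cells, was at 2.58 to 3.13 log2 CPM and 1.96 to 3.26 (change -0.05 ± 0.11, adjusted p = 0.71, above 0 with total-count scaling). Besides Cdkn1a and Gadd45a, the cell cycle inhibitors Cdkn1c and Cdkn2b rose by 1.85 ± 0.17 and 1.77 ± 0.26, for 4 of 13 members of that list (median 0.20).

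Growth factors moved on both arms of the myostatin pathway. Mstn, myostatin, the muscle's own growth inhibitor, was at -1.89 to 1.87 log2 CPM at 6 months (median 1.28) and -1.62 to 0.65 at 27 months (median -0.77), a fall of 1.78 (SE 0.35, adjusted p = 1.5e-05). The lowest young library lay below the lowest old one, so the ages overlapped. Fst, follistatin, which binds and blocks myostatin and activin, went from 1.38 to 3.07 (median 2.37) to 3.97 to 5.41 (median 5.04) without overlap (change 2.62 ± 0.20, adjusted p = 5.6e-19). Inhba and Gdf11, related ligands, fell by 0.95 (0.23) and 0.76 (0.12), and Tgfb1 and Tgfb2 rose by 0.70 ± 0.11 and 0.62 ± 0.07. In all, 3 of 23 members rose (6 with total-count scaling) and 3 fell (median 0.13). Each is 13.0% of the list, against 9.21% of all genes that rose and 5.78% that fell. In the insulin-like growth factor axis 5 of 16 rose and 0 fell (median 0.25). Igf2, the fetal growth factor, rose by 1.72 ± 0.16, from 7.92 to 8.26 to 9.06 to 10.60 log2 CPM, and the binding protein gene Igfbp5 by 1.58 ± 0.13. Igf1 was not called (0.22 ± 0.10).

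The best known genes of muscle wasting were not called, a call needing more than 1.5-fold. For old rat muscles the study reports Trim63 as significantly raised and Fbxo32 as not raised. Trim63 and Fbxo32, the muscle ubiquitin ligases MuRF1 and atrogin-1, stood at 0.31 ± 0.10 and -0.13 ± 0.08 (above 0 with total-count scaling), and Ampd3, an AMP deaminase raised in wasting muscle, at -0.01 ± 0.09 (above 0 with total-count scaling, edgeR and DESeq2). The ligase genes that rose were Fbxo30, induced by denervation (0.95 ± 0.12), and Nedd4 (0.72 ± 0.05, from 10.23 to 10.30 to 10.54 to 11.39 log2 CPM), for 2 of 14 in that list (median 0.30, 4 with total-count scaling). The transcription factor gene Foxo1 was at 0.48 ± 0.07. Of 32 proteasome subunit genes 0 were called by limma-voom, edgeR or DESeq2 (median 0.09), while 15 were higher and 5 lower at an unadjusted p under 0.05. Of 22 autophagy genes 1 fell, Bnip3, a mitophagy receptor, from 10.65 to 10.88 to 8.79 to 10.19 log2 CPM (change -1.16 ± 0.08). This is 4.55% of the list, against 5.78% of all genes that fell. In the integrated stress response, 8 of 22 rose and 2 fell (median 0.09). Those that rose include the serine and asparagine synthesis genes Phgdh (1.26 ± 0.22) and Asns (1.06 ± 0.16), the amino acid transporter gene Slc7a5 (1.07 ± 0.21) and Atf3 (1.498 ± 0.41). Gdf15 rose by 1.503 ± 0.54 at a median under 1 CPM in both ages. With 107 counts in all at 6 months, it passed the filter on low counts through other ages. The 2 that fell, Atf4 and Atf5, were named after their values were seen (-0.59 ± 0.07 and -0.65 ± 0.08). With Bonferroni 3 rose, and with total-count scaling 0 fell.

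Metallothioneins, small cysteine-rich proteins that bind zinc and copper, rose in 3 genes of a list of 10 that also holds zinc transporters (median 0.30). Their promoters are shown because metal response elements in them bind the zinc-sensing factor MTF1. Sequences are again 250 bases from RefSeq (GRCr8), and capitals mark TGCACNC or TGCGCNC on either strand. All 3 lie on the minus strand of chromosome 19: Mt1a (Mt1 in the reference) at chr19:10832976-10833225, Mt2A at chr19:10838709-10838958 and Mt3 at chr19:10856081-10856330.
Mt1a: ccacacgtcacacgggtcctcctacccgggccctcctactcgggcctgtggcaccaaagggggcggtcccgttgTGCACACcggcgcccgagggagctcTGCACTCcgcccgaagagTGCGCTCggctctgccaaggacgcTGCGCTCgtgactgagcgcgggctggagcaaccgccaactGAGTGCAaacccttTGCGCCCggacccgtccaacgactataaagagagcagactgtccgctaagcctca
Mt2A: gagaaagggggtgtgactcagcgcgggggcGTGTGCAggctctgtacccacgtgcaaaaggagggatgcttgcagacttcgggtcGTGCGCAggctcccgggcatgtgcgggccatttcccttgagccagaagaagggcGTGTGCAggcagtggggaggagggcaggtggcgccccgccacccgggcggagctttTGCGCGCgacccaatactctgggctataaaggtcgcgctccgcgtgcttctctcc
Mt3: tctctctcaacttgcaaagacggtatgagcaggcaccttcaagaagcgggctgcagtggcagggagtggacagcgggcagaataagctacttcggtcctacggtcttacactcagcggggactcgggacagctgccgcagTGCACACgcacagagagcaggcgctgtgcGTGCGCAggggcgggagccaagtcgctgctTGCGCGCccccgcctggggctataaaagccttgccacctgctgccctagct
These promoters held 6, 4 and 3 matches. At least 1 match was found in 21.2% of the 27457 promoters, at least 3 in 1.25% and at least 6 in 0.0219% (TGCACNC in 10.2%, TGCGCNC in 12.7%). Mt1a went from 1.43 to 3.28 log2 CPM (median 2.31) to 4.10 to 7.83 (median 6.19), a change of 3.91 ± 0.44 (adjusted p = 3.2e-12), with no overlap. Mt2A rose by 3.03 ± 0.46 without overlap, and Mt3 by 1.83 ± 0.36 with 8 of 12 old libraries above the young range. These genes are close copies of each other, so reads may be shared among them. Mtf1, the gene of the sensing factor, was at -0.06 ± 0.04 (above 0 with total-count scaling).

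The called members of the respiratory chain lists were all lower at 27 months. Of 34 complex I genes 0 rose and 6 fell (median -0.48), and of 40 genes of complexes II to V 0 rose and 10 fell (median -0.49). The changes ran from -1.27 to -0.23 and from -1.06 to 0.21. The median change lies just under 1.5-fold, so the counts move with the setting. With total-count scaling 1 and 4 fell (medians -0.33 and -0.35), without library 9 of 27 months 11 and 17 fell, and without library 8 3 of complex I fell. Cycs, cytochrome c, had the largest fall among the called members, from 9.80 to 10.05 log2 CPM (median 9.88) to 8.04 to 9.56 (median 8.85), a change of -1.06 ± 0.09 (adjusted p = 3.7e-17). Cox8b, Cox5a and Cox7b, subunits of cytochrome c oxidase, fell by 0.92, 0.82 and 0.79 (SE 0.07 to 0.08), and Ndufb5 of complex I by 0.74 (0.07), all without overlap. Of 18 genes of the citric acid cycle and its entry 6 fell and 0 rose (median -0.51), led by Dlat and Pdhb of pyruvate dehydrogenase and Sucla2, at -0.64 to -0.69, and with total-count scaling 0 fell. Cs, citrate synthase, was at -0.36 ± 0.05. Of 68 mitochondrial ribosomal protein genes 2 fell (median -0.26, 0 with total-count scaling). This is 2.94% of the list, below the 5.78% of all genes that fell.

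Transcripts of fat and ketone use included larger falls. Of 25 genes of fatty acid uptake and oxidation 12 fell and 1 rose (median -0.50, 6 with total-count scaling). Lpl, the lipase that frees fatty acids from circulating triglyceride, was at 10.95 to 11.24 log2 CPM at 6 months (median 11.07) and at 9.08 to 10.72 at 27 months (median 9.70), a fall of 1.36 (SE 0.10, adjusted p = 2.1e-19) without overlap. Fabp3, the fatty acid carrier of heart and slow muscle, fell by 1.18 (0.15), the transporter gene Cd36 by 0.86 (0.14) and the activating enzyme gene Acsl1 by 0.82 (0.10). The member that rose was Ucp3, a mitochondrial uncoupling protein, by 1.62 ± 0.41, with a range of 2.64 to 7.19 log2 CPM at 27 months. Of 6 ketone body genes 3 fell (median -0.68): Bdh1, Oxct1, the transferase that lets tissues burn ketones (from 10.31 to 10.75 to 8.07 to 10.05 log2 CPM, -1.49 ± 0.10), and the monocarboxylate carrier Slc16a1 (-0.78 ± 0.11).

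In sugar metabolism, of 13 glycogen genes 6 fell and 1 rose (median -0.42, 3 lower with total-count scaling). Ugp2, which makes the sugar donor for glycogen, fell by 1.58 (0.13), from 8.76 to 9.15 to 6.64 to 8.16 log2 CPM, the glycogen-targeting phosphatase subunit Ppp1r3c by 1.16 (0.16) and the phosphorylase kinase subunit Phka1 by 0.97 (0.08). Stbd1, which tethers glycogen to membranes, rose by 1.02 ± 0.09. In glycolysis 4 of 22 fell and 1 rose (median -0.03, or 0.11 with total-count scaling). The members that fell were Pfkfb1, Hk2, Ldhb and Aldoa, at -0.64 to -0.84, and Aldoc rose by 0.91 ± 0.18.

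Of 21 regulators of the oxidative slow programme 6 fell and 1 rose (median -0.36). Perm1, a muscle partner of PGC-1 and ERR factors, was at 9.66 to 10.01 log2 CPM at 6 months (median 9.82) and 6.07 to 9.24 at 27 months (median 8.01), a fall of 1.85 (0.15, adjusted p = 1.5e-17) without overlap. Esrrg and Esrra, the ERR receptors, fell by 0.87 (0.06) and 0.82 (0.09) without overlap, and Vgll2, a cofactor of slow muscle genes, by 0.94 (0.12). Sox6, the repressor of slow fibre genes, rose by 1.03 ± 0.09, from 3.15 to 3.90 to 3.93 to 4.86 log2 CPM, and Ppargc1a, PGC-1 alpha, was at -0.47 ± 0.10. Sod2 and Gpx1, antioxidant enzymes, fell by 0.77 (0.06) and 0.84 (0.10), while Hmox1 and Gpx3 rose by 1.30 ± 0.15 and 0.89 ± 0.09, for 3 of 21 higher and 2 lower in that list (median above 0 with total-count scaling, 0.01).

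Some lipid storage genes and most adipocyte markers rose. Of 16 lipid droplet genes 5 rose and 2 fell (median 0.09). Scd1, the desaturase of fat synthesis, went from 5.16 to 7.34 log2 CPM (median 5.82) to 6.88 to 9.86 (median 8.50), a change of 2.47 ± 0.35 (adjusted p = 4.9e-09), and Pnpla3 fell with G0s2, by 1.35 (0.25). Of 11 adipocyte markers 9 rose (median 1.12). Adipoq, adiponectin, went from 4.13 to 6.72 (median 5.93) to 6.54 to 8.06 (median 7.34), a change of 1.49 ± 0.18, and Lep, leptin, from 0.86 to 3.22 to 3.48 to 5.05 (1.52 ± 0.21) without overlap. Plin1 and Cidec of large lipid droplets rose by 1.30 ± 0.17 and 1.41 ± 0.15, and both stand in the lipid droplet list as well. Fabp4 was at 0.48 ± 0.10. The summed level of the 11 markers was 61.0 to 262 CPM at 6 months (median 171) and 235 to 609 at 27 months (median 384), with none at 0 in all libraries of an age, and their part in the lipid genes was not tested.

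Type I collagen fell while some other matrix genes rose. Of 19 collagens 2 rose and 3 fell (median 0.11). These are 10.5% and 15.8%, against 9.21% and 5.78% of all genes, so the share that rose was near that of all genes. Col1a1 of tendon and scar went from 9.43 to 11.21 log2 CPM (median 10.55) to 8.42 to 10.18 (median 9.50), a fall of 1.17 (0.18, adjusted p = 2.3e-08), with Col1a2 at -0.98 ± 0.15 and Col11a1 at -1.12 ± 0.13. Col3a1 was at 0.23 ± 0.16. Col23a1, a transmembrane collagen, rose by 2.77 ± 0.39 without overlap (median 0.66 to 3.42 log2 CPM), and Col8a1 by 0.73 ± 0.15. Of 20 other matrix genes 4 rose and 4 fell (median 0.03). Those that rose include Cilp (1.39 ± 0.16), the laminin chain Lama5 (1.23 ± 0.11) and the thrombospondin Thbs4 (1.05 ± 0.13), and those that fell the cartilage proteoglycan Acan (-1.61 ± 0.40), Spp1 and Fbn2. Of 10 small leucine-rich proteoglycans 2 fell (median 0.02), Kera (-1.20 ± 0.17) and Chad (-0.80 ± 0.18), which also mark tendon. Of 18 proteases and inhibitors 3 rose (median 0.30), among them Loxl1 (0.89 ± 0.13) and Mmp14 (0.61 ± 0.12). That count was 7 with total-count scaling and 1 with Bonferroni, and it was 5 without library 1 or 5 of 6 months or library 2, 10 or 11 of 27 months and 6 without library 9. Tendon markers summed to 640 to 2042 CPM at 6 months (median 1524) and 1652 to 2652 at 27 months (median 2053), and their part in the matrix genes was not tested. The most abundant of them was Thbs4, the 1 of 7 tested tendon markers that rose, whereas Tnmd (-0.95 ± 0.14), Kera and Chad fell (list median -0.23).

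Immune transcripts rose in several families. Of 20 complement genes 10 rose and 0 fell (median 0.58). C4a and C4b went from 4.59 to 6.12 log2 CPM to 6.54 to 7.40, and from 5.46 to 7.03 to 7.14 to 8.12 (changes 1.497 ± 0.14 and 1.42 ± 0.15), without overlap, though these copies are so alike that their reads may be mixed. C1s, a protease of the classical pathway, rose by 0.84 ± 0.09. Of 17 genes of MHC class I and antigen processing 7 rose (median 0.52, 4 with Bonferroni), among them the class I genes RT1-A2 (1.09 ± 0.20) and RT1-CE5 (1.21 ± 0.17) and the immunoproteasome gene Psmb10 (0.73 ± 0.13). RT1 genes also share reads. Of 9 MHC class II genes 4 rose (median 0.39, 1 with Bonferroni), among them the invariant chain gene Cd74 (0.74 ± 0.15). Of 36 interferon-stimulated genes 10 rose and 0 fell (median 0.40), but 0 with Bonferroni and 6 without library 5 of 6 months. Oas2 and Dhx58, antiviral sensors, rose by 1.18 ± 0.35 and 1.02 ± 0.22 from levels near 1 CPM, whereas Isg15, a ubiquitin-like protein, was at 0.02 ± 0.49 (below 0 with no filter on low counts).

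Chemokine genes rose in 9 of 25 and fell in 1 (median 0.56, 2 higher with Bonferroni). Of 32 listed genes present in the counts 25 passed the filter on low counts. Ccl5, Ccr7 and Ccl22 rose by 2.47 ± 0.51, 2.66 ± 0.59 and 2.29 ± 0.76 at medians under 1 CPM in both ages. They had 40, 59 and 39 counts in all at 6 months and 178, 340 and 223 at 27 months. They therefore passed the filter through ages other than 6 months, and a fall from so low a level could hardly have been called. The member that fell was Cxcl12, a stromal chemokine, from 8.33 to 8.72 log2 CPM to 7.34 to 8.18 (-0.85 ± 0.07). It was named after its value was seen. In the interleukin-6 and NF-kappaB list 7 of 19 rose (median 0.36). Nfkb2, the noncanonical subunit, rose by 1.16 ± 0.09 without overlap, from 3.66 to 4.25 to 4.58 to 5.50 log2 CPM, Bcl3, an IkB family partner, by 1.25 ± 0.17 and Cntfr, the receptor of a neurotrophic cytokine, by 1.41 ± 0.15. Tnf was at -0.56 ± 0.28 (adjusted p = 0.078).

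Markers of other cell types moved with these groups. Macrophage markers rose in 4 of 17 (median 0.51, 11 with total-count scaling, 2 without library 0 of 6 months or library 3 of 27 months) and summed to 363 to 682 CPM at 6 months (median 530) and 606 to 823 at 27 months (median 658). T cell markers rose in 5 of 10 and fell in 1 (Cd5, -0.73 ± 0.23, list median 0.70). Of 15 listed 10 passed the filter on low counts, and Cd3d, Cd3e, Cd3g, Zap70 and Trat1 were not tested. Gzmk, with 64 counts in all at 6 months, passed through other ages. The 15 summed to 15.9 to 26.9 CPM (median 22.6) and 21.5 to 42.5 (median 36.9). This sum was led by 1 gene, Cd4, with 6344 counts in all at 6 months and 10214 at 27 months. The cytokine receptor gene Il2rb among the T cell markers rose by 1.70 ± 0.24 without overlap. B and plasma cell markers summed to 0.790 to 3.52 CPM (median 1.77) and 1.65 to 4.26 (median 2.57), and their gene Tnfrsf17 was at 0 in all libraries of 6 months. None of the macrophage or T cell markers was at 0 throughout an age. Their part in the immune genes was not tested.

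Schwann cell markers rose in 3 of 12 and fell in 1 (Gjb1, at a median under 1 CPM), and summed to 169 to 226 CPM (median 194) and 209 to 373 (median 306). Cnp rose from 4.72 to 5.39 log2 CPM to 5.65 to 7.47 (1.85 ± 0.14), and S100b (0.80 ± 0.15). Of the 18 genes listed as endothelial markers 2 fell, the VEGF receptor gene Kdr (-0.74 ± 0.06) and the ligand gene Vegfa (-0.65 ± 0.07). The list median was -0.24, and the 18 summed to 1380 to 1568 CPM and 1007 to 1249, apart at the 2 ages. The most abundant was Vegfa, with 177248 counts in all at 6 months and 116327 at 27 months. Its part in the lower sum was not tested. Pecam1, a general endothelial marker, was at -0.10 ± 0.06 (above 0 with total-count scaling). Smooth muscle and pericyte markers fell in 2 of 12, Rgs5 and Kcnj8, and summed to 3674 to 4102 and 2501 to 3809 CPM. This sum was led by Des, which was not called, with 920981 counts in all at 6 months and 832475 at 27 months. The part of Des in the lower sum was not tested. Fibroblast markers rose in 1 of 10 (Fbln1, 0.77 ± 0.10), or 10% against 9.21% of all genes, and summed to 1716 to 2827 and 2044 to 3255 CPM. The most abundant of them was Gsn, with 507794 counts in all at 6 months and 597489 at 27 months. Red cell markers were called in 1 of 7 (Slc4a1, 0.64 ± 0.28, median 0.20), in 3 without library 11 of 6 months and in 0 with edgeR or DESeq2, and summed to 162 to 331 and 187 to 376 CPM. Liver transcripts fell in 5 of 14, or 0 with edgeR, DESeq2 or Bonferroni, and 8 to 10 without library 1, 2 or 4 of 6 months.

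Of 14 sarcomere stress genes 3 rose and 4 fell (median 0.12), and 2 of those that fell did not overlap between the ages. Ankrd1, a titin-bound stretch sensor that rises in injured muscle, went from 2.90 to 4.98 log2 CPM (median 3.87) to 4.37 to 8.32 (median 7.71), a change of 3.53 ± 0.40, with overlap, whereas its relative Ankrd2 of slow fibres fell by 1.29 (0.23). In iron handling 3 of 12 members were called (median 0.08). Tfrc, the transferrin receptor through which cells take up iron, went from 8.09 to 8.69 (median 8.45) to 5.66 to 7.29 (median 6.62), a fall of 1.82 (0.12, adjusted p = 8.8e-23). Ftl1, the ferritin light chain that stores iron, rose by 1.13 ± 0.07 and Slc40a1, the iron exporter, by 1.05 ± 0.09, all 3 without overlap. The count of members that fell was 3 rather than 1 without library 2 of 6 months.

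Of 15 circadian clock genes 6 rose and 4 fell (median 0.22). The activators Arntl and Npas2 fell, Arntl from 5.01 to 5.92 log2 CPM (median 5.29) to 2.45 to 4.16 (median 3.31), a change of -2.07 ± 0.22, and Npas2 by 1.58 (0.17). The output gene Dbp rose by 1.52 ± 0.22, and the repressors Per2 and Per3 by 1.07 ± 0.15 and 0.98 ± 0.11. Arntl, Npas2, Per2 and Per3 did not overlap between the ages. Clock genes follow the hour. The study's methods give the same window from morning to midday for every age, on different days. The hour of each library within it is not in the labels.

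The remaining lists moved little. Over all genes tested 9.21% rose and 5.78% fell, and shares of the lists follow in that order. They were 7.69% and 15.4% for polyamine enzymes, 13.3% and 0% for the dystrophin complex, and 7.14% and 14.3% for small heat shock proteins. Axon guidance genes had 8.82% each way, and homeobox and T-box genes 6.67% each way. The share that rose was thus above that of all genes only in the dystrophin complex. Polyamine enzymes rose in 1 of 13 and fell in 2, Odc1 (-0.99 ± 0.16) and Amd1 (-0.78 ± 0.08), with Sat1, the catabolic enzyme, at 0.70 ± 0.09. Dystrophin complex genes rose in 2 of 15, Dmd itself (0.73 ± 0.08) and Sntb1. Small heat shock proteins fell in 2 of 14, Hspb6 (-0.84 ± 0.10) and Cryab (-0.73 ± 0.11), and rose in 1, Hspb8, whose call rested on the scaling. Axon guidance genes rose in 3 of 34, Ephb1, Sema3f and Slit2 (0.90 ± 0.29, 0.80 ± 0.09 and 0.66 ± 0.11), and fell in 3 (median -0.04, above 0 with total-count scaling). Of these falls 1 was left without library 10 of 6 months or library 2 of 27 months, and 0 were called by edgeR or DESeq2. Homeobox and T-box genes of limb identity were called in 2 of 15, Hoxd10 (-0.69 ± 0.21) and Pitx1 (0.60 ± 0.24).

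Some of these calls depended on the fit. With the Bonferroni adjustment that the study used, the genes above that were no longer called were Rn18s, Klk1c7, Pvalb, A1i3, Alb, Serpina1, Nrg1, Colq, Tnnt3, Tnnc2, Tnnt2, Inhba, Atf3, Gdf15, Ucp3, Pfkfb1, Acan, Spp1, Chad, Mmp14, Oas2, Dhx58, Ccl5, Ccr7, Ccl22, Cd5, Gjb1, Slc4a1, Ephb1, Hoxd10 and Pitx1. Scaling by total count ended the calls of Colq, Atf4, Atf5, Dlat, Pdhb, Sucla2, Aldoa, Vegfa, Rgs5, Kcnj8 and Hoxd10. The calls of A1i3, Alb, Serpina1, Colq, Atf4, Gjb1 and Slc4a1 were lost with edgeR, DESeq2 or both. Without library 8 of 27 months Colq was at -0.47 and no longer called. A1i3 lost its call without library 4, 7 or 8 of 27 months, Atf4 without library 0, 6 or 8 of 27 months (-0.55 to -0.63 over all such fits) and Gjb1 without library 11 of 6 months. Mmp14, Hspb8, Pitx1 and Slc4a1 lie so near the fold threshold that 8, 12, 10 and 12 of the 24 libraries ended their calls when left out, with ranges of 0.54 to 0.67, 0.53 to 0.66, 0.48 to 0.70 and 0.51 to 0.75. Calls of Hspb8, Pitx1, Cryab and Slit2 also depended on the uneven libraries 4 and 7 or 0, 8 and 9 of 27 months.

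The intermediate ages place these changes in time. All of the values that follow share the same 12 libraries of 6 months, and each age has 12 libraries. Cdkn1a was 0.51, 0.88, 1.18, 2.24, 3.23 and 4.76 log2 units above 6 months at 9, 12, 18, 21, 24 and then 27 months, past both thresholds from 18 months on. Chrng was at 0.34, 0.69, 0.79, 1.59, 2.07 and 3.73, past them from 21 months. Myh3 was within 0.29 of the young level through 21 months, and then at 0.77 and 2.45. Mt1a reached 1.56 at 24 months and 3.91 at 27 months. For these 4 genes the step between 24 and 27 months was the largest between neighbouring ages.

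Metabolic genes took different paths. Perm1 was at 0.04, -0.02, -0.14, -0.40, -0.77 and -1.85, and Cycs at -0.10 to -0.36 through 24 months and at -1.06 at 27 months. Bdh1 had mostly fallen by 24 months, at -2.24 against -2.78 at 27 months, and Lpl fell in steps, at -0.28, -0.56, -0.84 and -1.36 from 18 months on. Col1a1 was different, since it was already at -1.26 at 18 months, was lowest at 21 months (-1.52) and stood at -1.17 at 27 months. Igf2 was at 0.99, 1.35 and 1.72 at 21, 24 and 27 months.

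**Figure D4:**
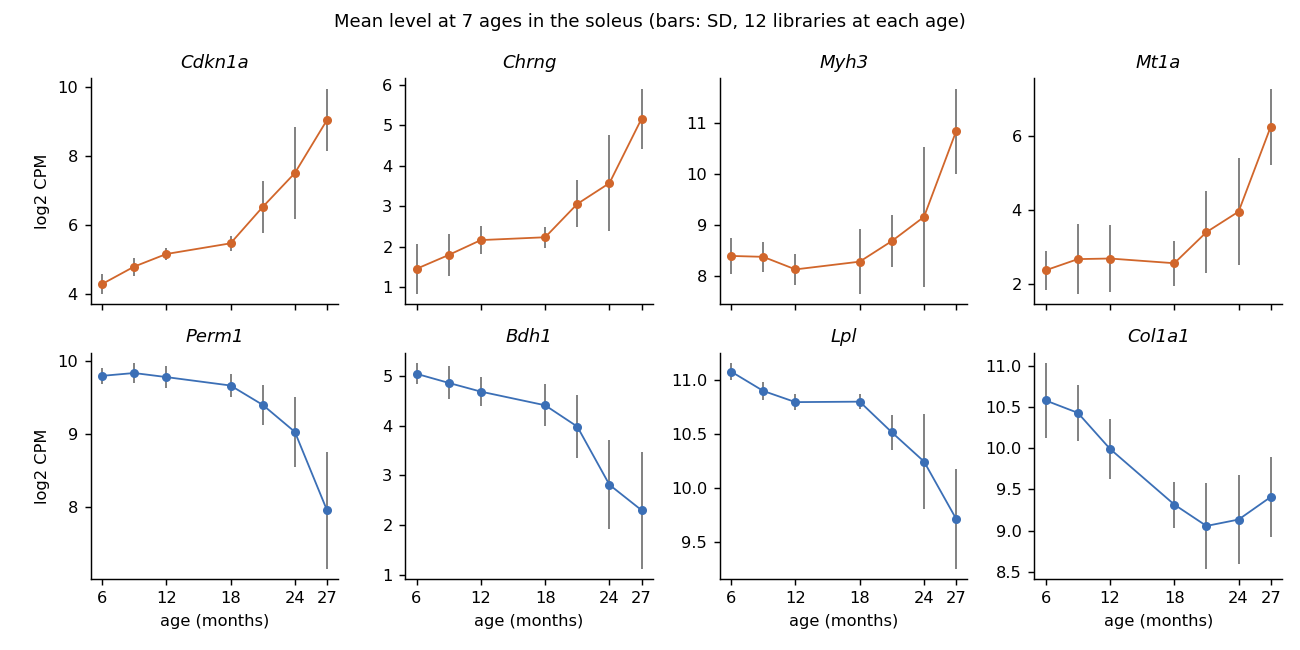
Mean level in log2 CPM (bars, SD of 12 libraries) of 8 genes in the soleus at 7 ages from 6 to 27 months. Cdkn1a, Chrng, Myh3 and Mt1a rise most between 24 and 27 months, while Col1a1 is lowest at 21 months.

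How far a library had moved was shared across lists. The mean shift of the 5 receptor subunits from the 6-month mean was 0.91 in library 9 of 27 months, the lowest, and 2.55 in library 8, the highest. For complexes II to V library 9 was at -0.06 and library 8 at -0.98, and for fatty acid genes library 9 was at 0.07. For the fast sarcomere the range was -0.09 to 2.92 at 27 months and -1.77 to 0.92 at 6 months, and for developmental genes 0.83 to 2.29 against -0.49 to 0.58. Immune lists and adipocyte markers had another low end: library 1 was the lowest of the 27-month libraries for interferon-stimulated genes, MHC class II, complement and adipocyte markers. Interferon-stimulated genes ranged from 0.13 to 0.63 at 27 months and from -0.51 to 0.58 at 6 months, so these ages overlapped over most of the range.

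**Figure D5:**
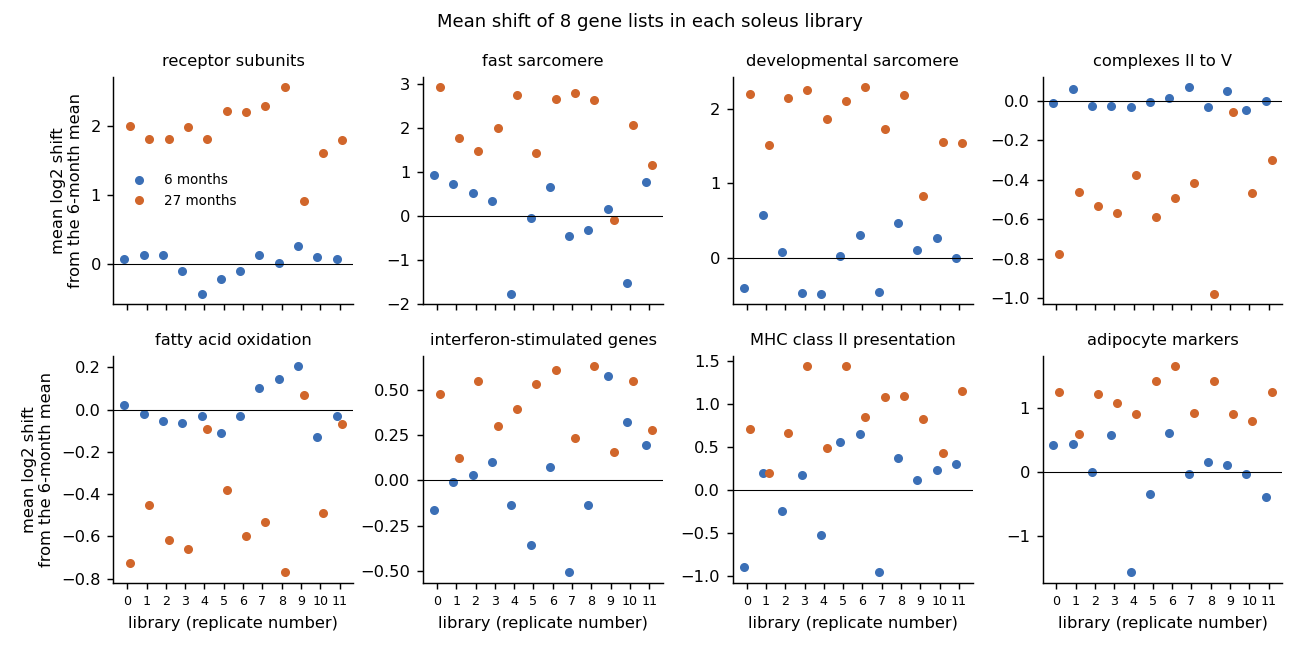
Mean shift of 8 gene lists from their mean at 6 months (log2) in each of the 12 soleus libraries of 6 months (blue) and of 27 months (orange), by the number in the title; equal numbers do not pair animals. Library 9 of 27 months is the least shifted in the receptor, developmental sarcomere and complexes II to V panels, and library 8 the most shifted in the first and last of these.

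To see what is particular to the soleus, its change was tested against that of each other muscle in a fit of all libraries of the 4 muscles (12784 genes). The change differed from that in the diaphragm for 1516 genes (11.9%), and was higher in the soleus in 6.30% and lower in 5.56% of all genes. Against the gastrocnemius it differed for 1848 (14.5%, 4.82% higher and 9.64% lower) and against the tibialis anterior for 2022 (15.8%, 5.48% higher and 10.3% lower). It was higher than in all 3 for 109 genes (0.853%) and lower for 189 (1.48%), or 114 and 127 with edgeR. The largest of the lower differences were those of liver transcripts, which were scattered over the libraries. Among them Fga, Cps1 and Cyp2c11 changed by -4.90, -4.25 and -5.23 in the soleus, at means under 1 CPM. The part of such transcripts in the 189 was not tested. The fast sarcomere stands out by count, 12 of 16 members being higher than in each other muscle. So were 9 of 9 fast fibre markers, but these overlap with that list and are no separate count. These are changes on the log2 scale, and the levels in the other muscles were not compared. Pvalb changed by 6.08 in the soleus against 0.21, -0.17 and -0.20 in diaphragm, gastrocnemius and tibialis anterior. Actn3 changed by 3.53 against -0.01, -1.39 and -1.52, and Myh4 by 3.06 against 1.40, -1.28 and -1.51. Among genes outside the sarcomere, Prkag3, the gamma subunit of AMP kinase found in fast fibres, rose from 3.83 to 4.55 log2 CPM to 4.28 to 7.46 (2.22 ± 0.22), with changes of 0.16 to 0.31 elsewhere, and Kcnc4, a fast potassium channel, by 1.93 ± 0.21 with changes of -0.20 to 0.03.

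The denervation genes went the other way against the limb muscles. Chrnd changed by 1.55 in the soleus, 1.87 in the diaphragm, 3.33 in the gastrocnemius and 4.83 in the tibialis anterior, lower in the soleus than in the last 2 (adjusted p = 7.8e-09 and 5.2e-24). Runx1 changed by 2.82, 1.81, 3.69 and 5.10, and all 3 differences were called. The median change of 11 denervation signals was 2.12, 1.09, 2.67 and 4.30. Cdkn1a, at 4.74, 1.64, 4.42 and 5.33, differed from the diaphragm (adjusted p = 5.8e-13), with differences of 0.32 ± 0.40 and -0.59 ± 0.40 from the other limb muscles. Myod1 was higher in the soleus than in each (2.86 against 0.47, 1.44 and 1.15), and so was Ache (1.23 against -0.50, -0.66 and -1.10).

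Metabolic lists compared differently with each muscle. Complex I genes had a median change of -0.49 in the soleus, 0.06 in the diaphragm, -0.55 in the gastrocnemius and -0.47 in the tibialis anterior, and 12, 0 and 0 of 34 passed the test of a difference. Glycolytic enzymes had medians of -0.05 in the soleus, 0.07 in the diaphragm, -0.84 in the gastrocnemius and -0.78 in the tibialis anterior. Of 22, 12 and 11 had a higher change in the soleus than in the gastrocnemius and tibialis anterior, against 1 higher and 5 lower than in the diaphragm. Of 13 glycogen genes 5 passed against the diaphragm, all lower, against the gastrocnemius 3 were higher and 3 lower, and against the tibialis anterior 6 were higher and 1 lower. Fat and ketone genes differed from more muscles: Lpl changed by -1.38 against -0.17, 0.20 and 0.23, Bdh1 by -2.80 against 0.18, -0.44 and 0.23, and Oxct1 by -1.51 against -0.16, -0.48 and -0.81, each lower than in all 3. Of 11 adipocyte markers 10 had a higher change than in the diaphragm and 0 passed the test against the other limb muscles, and Adipoq changed by 1.47, 0.05, 1.44 and 2.002. Arntl changed by -2.09, -2.60, -2.05 and -2.16, with soleus differences of 0.51 ± 0.31, -0.04 ± 0.32 and 0.07 ± 0.30.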

How the data were processed

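RNA of male Sprague Dawley rat muscle was sequenced from strand-specific, ribosome-depleted libraries. The authors mapped reads to the rat B6.0 genome with the ArrayStudio pipeline (version not given in the sources used here) and deposited raw counts per gene of a RefSeq-based model. Of the 17870 lines in each file, those that share a symbol were summed, which left 17315 symbols.

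Here the counts of all 84 soleus libraries were filtered (filterByExpr, minimum count 10), scaled by TMM and fitted by age with limma-voom (limma 3.58.1, edgeR 4.0.16, R 4.3.3). Genes of adjusted p under 0.05 (Benjamini-Hochberg over 12175 genes) and over 1.5-fold at 27 against 6 months were called. Levels are voom log2 CPM (prior count 0.5) and errors SE. Differences from other muscles are interaction contrasts in a fit of all 4 muscles and 7 ages. That fit treats libraries of different muscles as independent, although they may share animals that the labels do not name. Library measures were compared by two-sided permutation tests (100000 resamples, scipy 1.17.1). Named genes are the 12 largest rises and falls of genes with a mean over 1 log2 CPM and a gene name, up to 6 called members of each of 61 lists with the uncalled members needed to describe it, the 10 expressed genes that differ most from all 3 other muscles, and Myh7, Myh4 and Eif2s3y. The lists, markers and genes were chosen with earlier results of these data known. Alternatives were DESeq2 1.42.0, edgeR, other scalings, filters and thresholds, weights, blocks and left-out libraries. On simulated counts 99% of 2-fold and 98% of 3-fold changes were recovered, with 3 false calls among 11982 genes. How far these rates hold for the real libraries, more spread at 27 months, or for genes under 1 CPM was not tested. The share of mitochondrially encoded genes was planned but not computed, since 0 such genes matched the files' symbols. No library pair held identical counts. The replicate numbers do not name animals, and same-number libraries of the 2 ages did not deviate together (correlations -0.40 to 0.40, over 0.1 in 2 of 12). Promoters and motif shares come from RefSeq (GRCr8), whose build differs from that of the counts, so only gene names link them. The depth was 21.4 M counts or more per library. Standard errors cover the spread between libraries. Some genes are not reported here.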

Additional observations from a re-analysis of the deposited data

Results flagged for a closer look

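The change between 6 and 27 months differed between the soleus and another muscle, by an interaction test across all libraries, for 1516 genes against the diaphragm, 1848 against the gastrocnemius and 2022 against the tibialis anterior. In the genes that follow all 3 tests were called in the same direction, and the value given is the smallest of the 3 differences on the log2 scale. Fast sarcomere and calcium genes were more positive in the soleus: Pvalb by 5.87, Actn3 by 3.53, Myh1 by 3.28, Mylpf by 2.82, Tnnt3 by 2.49 and Tnnc2 by 2.14. So were Prkag3, by 1.89, and Kcnc4, by 1.88. The ketone enzyme gene Bdh1 was more negative, with a difference of -2.36 from the nearest muscle. RGD1309676, a gene with a locus number for a name, had a difference of -1.74, and it changed by -1.49 in the soleus against 0.25, 0.40 and 0.88 in diaphragm, gastrocnemius and tibialis anterior.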

How the results depend on the processing

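Higher and lower genes numbered 1121 and 704, and kept within 1.5 times of these counts with RLE size factors (1105 and 717), no filter (1235 and 789), edgeR (1067 and 585), DESeq2 (1061 and 591), only the 24 libraries (1002 and 622), quality weights (1121 and 691) and limma-trend (1074 and 704). Total-count scaling gave 1620 and 466, Bonferroni 612 higher, and a 2-fold threshold 529 and 262. Leaving out 1 library gave 1042 to 1177 higher and 633 to 779 lower. Leave-one-out ranges of the age differences were -2.93 to -1.40 M for total counts, -3.26 to -2.55 percentage points for the 10 most abundant genes and 0.00531 to 0.0218 points for ribosomal RNA. Chosen after seeing the data, fits without libraries 4 and 7 (1126 and 730) and without 0, 8 and 9 of 27 months (1056 and 661) changed neither count by over 1.5 times. Against other muscles, Bonferroni and the 2-fold threshold gave 696 and 689 genes for the diaphragm, 872 and 739 for the gastrocnemius, 952 and 969 for the tibialis anterior, 49 and 53 above all 3, and 48 and 104 below all 3. Of 257 called genes covered by the naming rule, 62 lost their calls with Bonferroni, 26 with total-count scaling, 18 with DESeq2, 17 with edgeR and 23 when some library was left out. Uncalled genes changed sign as follows: with total-count scaling Fbxo32 (0.0229), Ampd3 (0.14), Mtf1 (0.0909), Pax7 (0.0761) and Pecam1 (0.0429), with edgeR and DESeq2 Ampd3 (0.0333 and 0.0280) and Myh2 (-0.13 and -0.13), with no filter Isg15 (-0.0892), without 0, 8 and 9 Ampd3 (0.13), and without some library Ampd3 (0.0556), Isg15 (-0.13) and Pax7 (0.00326). The causes were not tested. How far depth limits the genes under 1 CPM was not tested.

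With the replicate number as a block, which shares a number but not an animal, 1091 genes were higher and 736 lower, and 1566, 1894 and 2067 differed from the diaphragm, gastrocnemius and tibialis anterior. In 1 of 12 cases a library correlated best with its own number.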
